A study of Mus musculus with 24 samples.

Results

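TRBV2, TRBV3, TRBV4 and TRBV5 are 4 variable (V) gene segments of the mouse T cell receptor β chain, listed by RefSeq under the older names Tcrb-V4, Tcrb-V16, Tcrb-V10 and Tcrb-V1. Their members were all β chain sequences assigned to these segments, whatever the allele, with no stop codon marked and at least 2 counts, in each of 24 tumors. They comprised 12173 of 75357 retained sequences, and they used 4 of the 25 TRBV segments with retained sequences. The tumors were CT26.CL25, a colon carcinoma line grown under the skin of both flanks of female BALB/c mice aged 7–9 weeks, and each of 12 mice gave 2 tumors. In the time-matched group (mice 6, 12 and 14) both tumors were taken on day 13 with no treatment. In the time-separated group (mice 4, 17 and 19), also untreated, 1 tumor was removed by surgery and the other was taken 11 days later. The 2 decitabine groups had the same surgery and interval. After the surgery they received this inhibitor of DNA methylation for 5 days at 0.5 mg/kg (mice 3, 11 and 20) or 2 mg/kg (mice 7, 10 and 16), before the last tumor was taken. The tumor removed by surgery was therefore never exposed to the drug. The tumors of a mouse are numbered 1 and 2 in the labels, which do not say which was taken first, so no difference below has a direction in time. The study also calls the untreated time-separated mice its vehicle control, and no vehicle injection is described for them. All groups carried the same single cell line, and the libraries were made from RNA of whole tumors. The labelled cell type is colon cancer cells, and since the libraries hold receptor transcripts alone, no marker of any other cell type was measured.

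A β chain is made when 1 V, 1 D and 1 J segment are joined in a developing T cell. The join forms the third complementarity determining region (CDR3), the loop that mostly contacts the peptide, while the V segment also encodes the other 2 loops, which mostly contact the presenting molecule. T cells that descend from 1 cell carry the same join, so a CDR3 with its V and J segments marks a clonotype. Many transcripts of 1 clonotype can come from an expanded clone, although separate joins can encode the same clonotype.

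The segments were assigned by the authors' clonotype caller. The 40 bases most common before the CDR3 in each segment's sequences are shown in lower case, followed in capitals by the first 12 bases of the CDR3, because they show that the segments differed in the framework and mostly shared the start of the loop.
TRBV2: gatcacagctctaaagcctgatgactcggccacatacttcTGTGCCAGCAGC
TRBV3: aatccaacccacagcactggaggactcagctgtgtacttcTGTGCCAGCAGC
TRBV4: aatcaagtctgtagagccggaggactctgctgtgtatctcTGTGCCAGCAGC
TRBV5: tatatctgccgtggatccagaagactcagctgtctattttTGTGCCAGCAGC
These 40 bases were carried exactly by 89.7% of the TRBV2 sequences that reached that far, 81.6% of TRBV3, 76.0% of TRBV4 and 86.9% of TRBV5, and 65.7% (TRBV4) to 87.9% (TRBV5) of those went on with the 12 capitals. Between segments, 22 (TRBV2 and TRBV3, and TRBV2 and TRBV5) to 28 (TRBV3 and TRBV4) of the 40 bases were identical.

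Retained counts per library ran from 63291 to 887567 (median 206448), and clonotypes per library from 777 to 3746. The time-matched libraries were deeper (375898 to 610800 counts) than the untreated time-separated ones (97815 to 207072). Together the 4 segments held 17.0 ± 3.49% of clonotypes and 12.3 ± 6.01% of counts (SD, n = 12 mice). Intervals given for single clonotypes cover counting error only, and in RNA of whole tumors fewer cells of a clone and less receptor RNA per cell cannot be told apart.

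TRBV5 had the most clonotypes of the 4, and TRBV4 had the highest mean share of counts, though TRBV5 held more counts than TRBV4 in 7 of 12 mice. TRBV5 took 6.90 ± 1.51% of clonotypes (SD, n = 12 mice), the fifth largest share of 25 segments, and 4.23 ± 2.26% of counts. TRBV4 took 5.37 ± 2.38% of clonotypes and 5.11 ± 4.33% of counts. TRBV2 followed with 2.60 ± 0.736% of clonotypes and 1.26 ± 0.701% of counts, and TRBV3 with 2.14 ± 1.34% of clonotypes and 1.69 ± 2.13% of counts. In clonotypes, TRBV5 stood above TRBV2 in 24 of 24 tumors and above TRBV3 in 23 of 24. TRBV5 and TRBV4, and likewise TRBV2 and TRBV3, differed by less than the larger SD of the pair, while TRBV4 stood above TRBV2 in all but 1 of 12 mice and all but 3 of 24 tumors. TRBV4 had the larger share of clonotypes in 7 of 24 tumors against TRBV5 and the larger share of counts in 12 of 24, and TRBV2 had more clonotypes than TRBV3 in 16 of 24. Across the 12 mice, the clonotype shares most like those of TRBV4 were TRBV20 (Spearman rho 0.86) and TRBV26 (0.69), and those most like TRBV5 were TRBV1 (0.82) and TRBV8 (0.63). The nearest to TRBV2 were TRBV5 (0.61) and TRBV8 (0.58), and the nearest to TRBV3 were TRBV13-1 (0.49) and TRBV12-1 (0.44). These shares come from the same libraries and sum to a fixed total, so the rho values are a description.

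In counts, the segments varied widely within groups, between mice or between the tumors of a mouse. TRBV2 ranged over the 6 tumors of a group from 0.383 to 2.09% (median 0.603%) in the time-matched mice and from 0.0928 to 2.28% (median 1.79%) in the untreated time-separated mice. It ranged from 0.621 to 2.25% (median 1.82%) at 0.5 mg/kg and from 0.0966 to 1.99% (median 0.557%) at 2 mg/kg. Both extremes of the untreated group were the 2 tumors of mouse 19. TRBV3 ranged from 0.198 to 4.79% (median 0.368%) in the time-matched mice, where mouse 12 alone was above 1%. It ranged from 0.147 to 7.99% (median 3.05%) in the untreated time-separated mice and only from 0.0643 to 0.745% (median 0.463%) at 0.5 mg/kg. At 2 mg/kg it ranged from 0.177 to 4.03% (median 0.562%), with tumor 2 of mouse 16 alone above 1%.

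In percentage points, TRBV4 had the widest range. Among the time-matched mice, mouse 6 stood at 11.6% and 9.18%, and mice 12 and 14 at 0.449 to 0.796%. In the untreated time-separated mice it ranged from 1.89 to 10.8% (median 5.83%), at 0.5 mg/kg from 1.82 to 11.4% (median 3.34%), and at 2 mg/kg from 0.650 to 14.7% (median 2.24%), where both tumors of mouse 10 were above 12%. TRBV5 ranged from 1.37 to 5.03% (median 2.13%) in the time-matched mice and from 0.762 to 10.8% (median 4.66%) in the untreated time-separated mice. It ranged from 3.48 to 10.3% (median 6.05%) at 0.5 mg/kg and from 0.639 to 6.11% (median 1.40%) at 2 mg/kg. The tumors of the groups overlapped for all 4 segments. The values at both doses include the tumors removed before dosing.

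**Figure D1:**
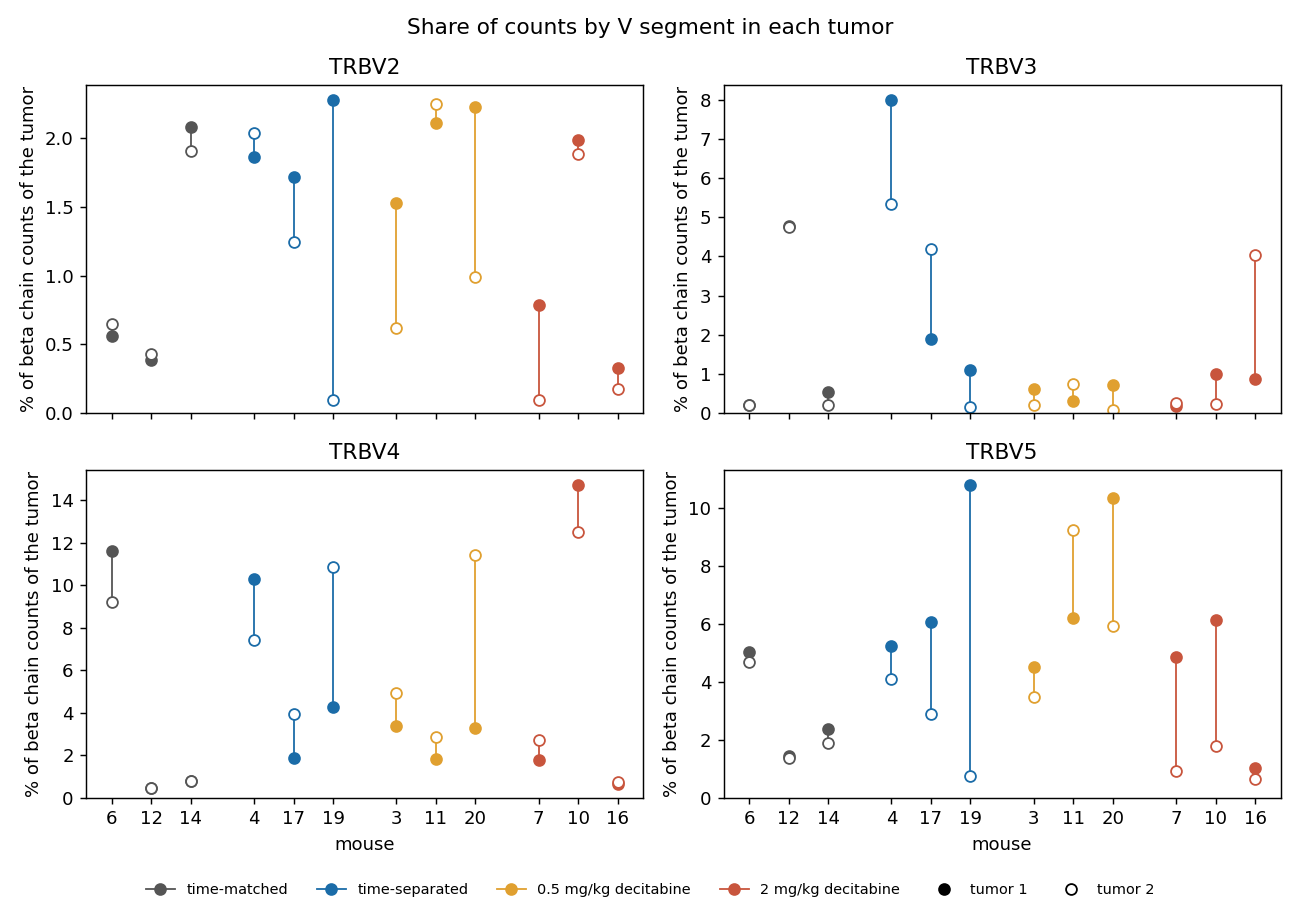
Share of β chain counts taken by each of the 4 segments (y axis, percent of the tumor's retained counts) in each mouse (x axis, colored by group), with tumor 1 as a filled and tumor 2 as an open circle joined by a line. Among the time-matched mice, the 2 tumors lie furthest apart in percentage points for TRBV4 in mouse 6 (11.6% and 9.18%). As a ratio they do so for TRBV3 in mouse 14 (0.523% and 0.214%). TRBV4 reaches 14.7% in mouse 10.

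No difference between the groups in the use of a segment passed the test. The comparison of time-separated with time-matched mice asks whether the interval and surgery went with other V segments. However, the tumors also differed in age, since the time-separated ones were taken before and after the day of the time-matched harvest. The comparisons with decitabine ask the same of the drug. They sum both tumors of a mouse, and 1 of these was removed before dosing, so they do not measure exposed tumors alone. Both decitabine comparisons share the untreated time-separated mice as controls, and those mice are also the first group of the other comparison. edgeR's quasi-likelihood test on counts summed per mouse called 0 of 25 segments at an adjusted p under 0.05 in each of these 3 comparisons (0% of those tested). At an unadjusted p under 0.05 it had 3, 1 and 2 segments, and DESeq2 called 0 in all 3, with 1, 2 and 1 at an unadjusted p under 0.05. The largest difference of the 4 segments was that of TRBV3, with 0.442 ± 0.0780% of counts at 0.5 mg/kg against 3.45 ± 3.04% in the untreated time-separated mice (SD, n = 3 mice each). The mouse means did not overlap (0.385 to 0.531% against 0.625 to 6.67%), the log2 difference was -2.84 with a standard error of 1.26, and edgeR's adjusted p was 0.455. At 2 mg/kg the TRBV3 difference was -1.94 ± 1.22 (SE, edgeR adjusted p = 0.638), which turned to 0.22 with trimmed-mean scaling and 0.10 with DESeq2. With time separation alone, the log2 differences of the 4 segments ran from 0.51 (TRBV2) to 0.91 (TRBV3), with a median of 0.72 beside 0.91 over the 25 segments, and all 4 turned below 0 with trimmed-mean scaling or DESeq2. Trimmed-mean scaling moved the median of all segments to -0.43 and DESeq2 to -0.30, so these values have no settled direction. The remaining log2 differences at 0.5 mg/kg were 0.28 for TRBV2, -0.69 for TRBV4 and 0.59 for TRBV5 (median of the 4 segments -0.21, of all 25 -0.22), and that of TRBV2 was -0.0028 without mouse 19 and 0.58 without mouse 4. Those at 2 mg/kg were -0.57, -0.34 and -0.60 (medians -0.58 and -0.47), and all turned above 0 under both other scalings.

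Numbers of clonotypes gave the same picture. edgeR called 0 of 20 segments in each of the 3 comparisons (0%), with 1, 1 and 0 at an unadjusted p under 0.05, and DESeq2 called 0 with the same 1, 1 and 0. The 4 segments' log2 differences ran from 0.08 (TRBV3) to 0.49 (TRBV4) with time separation, where that of TRBV4 alone kept its sign under both other scalings. They ran from -1.10 (TRBV3) to 0.23 (TRBV5) at 0.5 mg/kg and from -0.69 (TRBV3) to -0.19 (TRBV5) at 2 mg/kg, where TRBV2 and TRBV5 turned above 0 under the other scalings. The TRBV3 difference at 0.5 mg/kg was -0.33 without sequences that lie 1 nucleotide from one at least 100 times as abundant in the same tumor, and that of TRBV5 was 0.085 without mouse 20 and 0.35 without mouse 3. At 2 mg/kg the TRBV3 difference was -0.18 with DESeq2 and -0.40 with trimmed-mean scaling, and -1.34, -0.33, -1.05 and -0.39 without mouse 16, 7, 19 or 4. The smallest edgeR adjusted p among the 4 was 0.676 with time separation, 0.752 at 0.5 mg/kg and 0.799 at 2 mg/kg.

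Within a mouse, the mean difference between the 2 tumors was smaller for each of the 4 segments where they were taken on the same day, as for all 16 segments tested, but no segment passed the test after adjustment. The mean absolute log2 ratio of the shares of the 2 tumors was 0.17 ± 0.04 for TRBV2, 0.47 ± 0.71 for TRBV3, 0.13 ± 0.18 for TRBV4 and 0.17 ± 0.14 for TRBV5 in the 3 time-matched mice (SD). In the 9 time-separated mice, with and without decitabine together, it was 1.31 ± 1.54, 1.75 ± 1.01, 0.77 ± 0.53 and 1.32 ± 1.16 (SD). The untreated mice 4, 17 and 19 had 0.13, 0.46 and 4.61 for TRBV2 and 0.58, 1.15 and 2.91 for TRBV3. For TRBV4 they had 0.47, 1.06 and 1.35, and for TRBV5 0.36, 1.07 and 3.82. The mice overlapped for TRBV2, where mice 4, 10 and 11 (0.13, 0.08 and 0.09) lay below every time-matched mouse, for TRBV3, where the time-matched mouse 14 (1.29) lay above mice 4, 7, 11 and 17, and for TRBV4. They did not overlap for TRBV5 (at most 0.33 against at least 0.36). By exact permutation tests of 3 against 9 mice, the unadjusted p was 0.236 for TRBV2, 0.0727 for TRBV3, 0.0682 for TRBV4 and 0.0955 for TRBV5, and 0 of 16 segments tested were called after adjustment (0%), with 2 at an unadjusted p under 0.05. The smallest p that this design allows is 0.00455. Mouse 19 had the widest difference for TRBV2 and TRBV5 (absolute log2 ratio 4.61 and 3.82), and mouse 20 for TRBV3 and TRBV4 (3.43 and 1.79). Of mouse 19, tumor 1 held 2.28% TRBV2, 1.10% TRBV3, 4.26% TRBV4 and 10.8% TRBV5, and tumor 2 held 0.0928%, 0.147%, 10.8% and 0.762%.

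The counts of these segments ran below their clonotypes. A log2 ratio of a segment's share of counts to its share of clonotypes is 0 where its clones are of average size. It was -1.41 ± 0.74 for TRBV2, below 0 in 12 of 12 mice, and -1.02 ± 0.64 for TRBV5, again below 0 in 12 of 12 (SD; adjusted p = 0.00156 for each, exact sign-flip test over 12 mice, whose smallest unadjusted p is 0.000488). It was -1.28 ± 1.07 for TRBV3 (above 0 in 2 mice, exact adjusted p = 0.00521) and -0.65 ± 0.96 for TRBV4 (above 0 in 4 mice, exact adjusted p = 0.0463). This was common, since 14 of 16 segments were called (87.5%), 13 of them below 0 and 1 above, TRBV17, which held 27.8 ± 13.9% of counts. With TRBV17 left out of every library, an alternative chosen after the data were seen, TRBV2 (-1.14), TRBV3 and TRBV5 (-0.75) stayed called, while TRBV4 at -0.38 did not (exact adjusted p = 0.283). The TRBV4 call was also lost in libraries thinned to the smallest (-0.72, exact adjusted p = 0.0547) and without mouse 3, 7, 11, 12, 14, 16 or 17 (-0.68 to -0.49, exact adjusted p = 0.0569 to 0.0926).

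**Figure D2:**
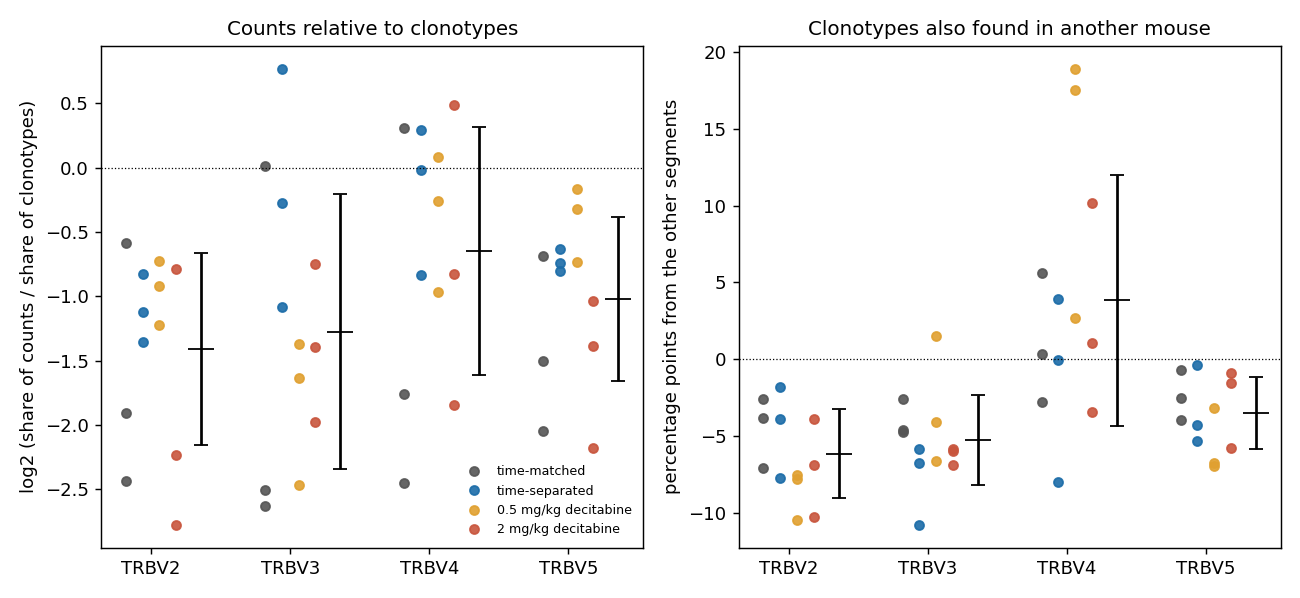
Left, log2 ratio of the share of counts to the share of clonotypes for each segment, 1 point per mouse colored by group; right, difference in percentage points between the segment and the other segments in the share of a mouse's clonotypes found in another mouse. Black bars give the mean and SD of 12 mice, the dotted line is 0, and TRBV2 and TRBV5 lie below 0 in every mouse on both sides.

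Clones of 1% or more of a tumor's counts used the 4 segments in all 12 mice. There were 31 such clonotypes, counted once per mouse, beside 179 of the other segments. TRBV4 had 13 of them in 9 mice, TRBV5 had 10 in 8 mice, TRBV3 had 5 in 4 mice and TRBV2 had 3 in 3 mice. Their highest share was 9.56%, against 56.2% among the other segments. A single clone could carry most of a segment's counts. In mouse 12, a time-matched mouse, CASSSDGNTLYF with TRBV3 and TRBJ1-3 took 4.23% (95% exact interval 4.17–4.28) and 4.08% (4.03–4.13) of counts and 88.4% and 85.8% of all TRBV3 counts. In mouse 14, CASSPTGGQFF with TRBV2 and TRBJ1-4 took 1.46% and 1.37%, and 70.1% and 71.9% of TRBV2 counts. The time-matched mouse 6 had a 15-residue clonotype of TRBV4 with TRBJ2-1 at 9.42% and 7.38%, second in rank in both tumors, and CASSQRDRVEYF of TRBV5 with TRBJ2-7 at 1.95% and 1.71%.

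In the untreated time-separated mice, a 14-residue clonotype of TRBV4 with TRBJ1-1 took 0.523% (0.479–0.571) of tumor 1 and 9.18% (9.05–9.30) of tumor 2 of mouse 19, where it ranked 3 among all clones and made up 84.6% of TRBV4. Mouse 4 had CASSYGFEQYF of TRBV4 with TRBJ2-7, the largest of all clones in its tumor 1, at 7.10% and 2.45%. The same mouse had a 15-residue TRBV3 clonotype with TRBJ1-4 at 6.79% and 3.31%. In mouse 17, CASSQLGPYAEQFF of TRBV2 with TRBJ2-1 took 0.732% and 0.848%, and a 15-residue TRBV5 clonotype with TRBJ2-3 took 2.46% and 0.278%.

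At 0.5 mg/kg, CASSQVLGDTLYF of TRBV5 with TRBJ2-4 took 2.10% (2.03–2.16) and 7.40% (7.24–7.57) of the tumors of mouse 11 and 80.1% of TRBV5 in tumor 2. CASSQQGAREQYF of TRBV2 with TRBJ2-7 took 0.135% and 1.01% of the same tumors. The TRBV3 clone of this group with the highest mean over both tumors, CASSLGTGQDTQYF with TRBJ2-5 in mouse 11, took 0 of 199081 counts in tumor 1, which allows a share of up to 0.00151%, and 0.606% of tumor 2. At 2 mg/kg, a 15-residue TRBV4 clonotype with TRBJ2-1 took 9.56% and 9.31% of the tumors of mouse 10, and a 15-residue TRBV3 clonotype with TRBJ2-5 took 0.752% and 3.78% of those of mouse 16, there 93.9% of TRBV3. The TRBV5 clone of the group with the highest mean over both tumors, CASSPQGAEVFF with TRBJ1-1 in mouse 10, took 0.306% and 0.978%, and a 15-residue TRBV2 clonotype with TRBJ2-2 took 0.389% and 1.31%.

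Between the tumors of a mouse, the 5 large clones of the time-matched mice differed by at most 1.28-fold (absolute log2 ratio 0.05 to 0.35), with none missing from either tumor. The time-separated mice, with and without decitabine together, had 26 large clones, and 24 were found in both tumors. Of the 26, 23 differed by 2-fold or more (median absolute log2 ratio 2.40). These were 11 of 11 in the untreated mice, 8 of 9 at 0.5 mg/kg and 4 of 6 at 2 mg/kg. The exceptions below 2-fold were 2 TRBV4 clones of mouse 10 and the TRBV5 clone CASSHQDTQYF of mouse 20, at 2.68% and 3.90%. The 2 not found in both were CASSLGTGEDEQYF of TRBV3 in mouse 4, at 0 and 1.25%, and a 16-residue TRBV5 clonotype of mouse 7, at 1.20% and 0. Clones of 1 mouse share its tumors, and the clones were picked by their share in either tumor, so these counts are a description with no test. No such counts are given for the large clones of other segments.

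**Figure D3:**
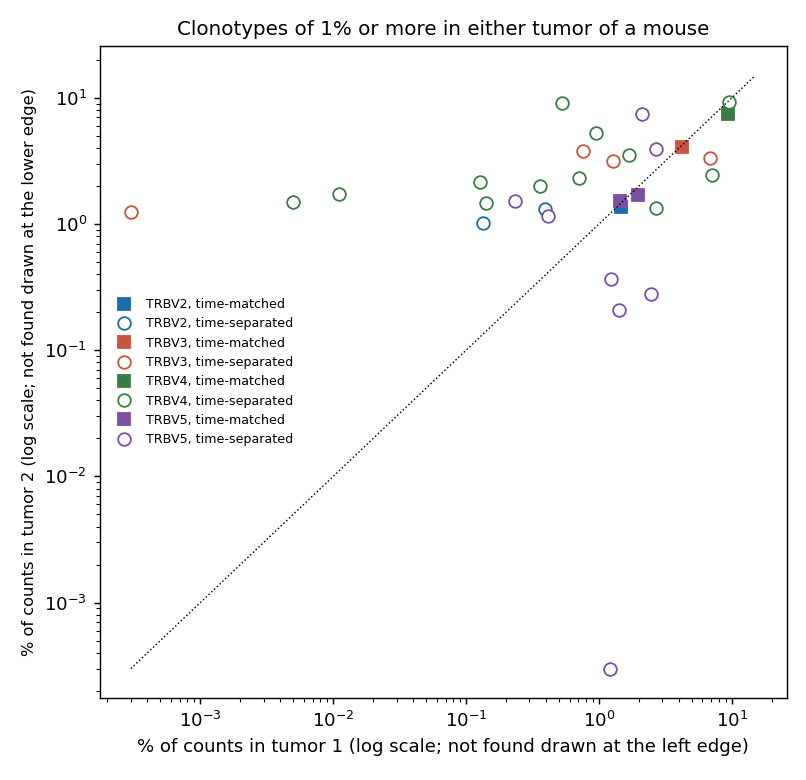
Share of counts in tumor 1 (x axis) and tumor 2 (y axis), both in percent on log scales, of the 31 clonotypes that reached 1% in either tumor of their mouse, colored by segment. The 5 clonotypes of time-matched mice (filled squares) lie on or near the dotted line of equal shares. Most of the 26 of time-separated mice, with and without decitabine (open circles), lie further from it.

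Most clonotypes of the 4 segments were found in 1 mouse. Of the distinct clonotypes, 1363 of 1395 with TRBV2, 1104 of 1128 with TRBV3, 2350 of 2485 with TRBV4 and 3531 of 3663 with TRBV5 were found in 1 mouse alone. The share of a mouse's clonotypes that was also found in another mouse was 5.33 ± 1.88% for TRBV2, 6.15 ± 2.64% for TRBV3 and 8.07 ± 0.977% for TRBV5 (SD, n = 12 mice), and 11.4 to 11.6% on average among the respective other segments. The differences were -6.16, -5.28 and -3.53 percentage points, below 0 in 12, 11 and 12 of 12 mice (adjusted p = 0.00112, 0.00174 and 0.00112, exact sign-flip test). TRBV4 stood at 15.0 ± 7.99% against 11.2%, above 0 in 8 of 12 mice (exact adjusted p = 0.177). Here 10 of 16 segments were called (62.5%), 9 of them below 0 and TRBV17 above. With TRBV17 left out, the difference of TRBV4 was 5.69 points (exact adjusted p = 0.0374) and that of TRBV5 was -1.66 (0.0285). The TRBV5 difference shrank to -0.11 points (exact adjusted p = 0.853) without these close sequences, and to -0.86 points (exact adjusted p = 0.0836) where the other mouse had to hold at least 10 counts. Close sequences made up 17.2, 23.0, 27.1 and 25.3% of TRBV2, TRBV3, TRBV4 and TRBV5 sequences on average and 34.2% of those of other segments.

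The clonotype of each segment found in most mice was small. For TRBV4 it was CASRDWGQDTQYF with TRBJ2-5, found in 9 of 12 mice at 0.108% or less of a tumor, and for TRBV3 it was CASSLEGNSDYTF with TRBJ1-2, found in 8 mice at 0.0831% or less. A 15-residue TRBV5 clonotype with TRBJ2-5 was found in 8 mice at 0.0355% or less, and a 16-residue TRBV2 clonotype with TRBJ2-1 in 5 mice at 0.0424% or less.

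The large clones that recurred at high shares were of TRBV4. Of its 13 clonotypes of 1% or more, 6 were found in another mouse at 0.1% or more, and 4 of these at 1% or more, which are 2 distinct clonotypes counted in each of their mice. None of the 18 of TRBV2, TRBV3 and TRBV5 was found in another mouse at 0.1%, while 46 of the 179 of the other segments were, and 31 of them at 1% or more. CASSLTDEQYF with TRBJ2-7 took 1.69% (1.63–1.75) and 3.53% (3.38–3.67) of the tumors of mouse 3 and 0.956% (0.905–1.01) and 5.29% (5.15–5.44) of those of mouse 20, both treated with 0.5 mg/kg. It was found in no other mouse. The same nucleotide sequence made up 99.3% and 99.5% of its counts in the tumors of mouse 3 and 92.9% and 93.2% in those of mouse 20, and mouse 20 also had a second sequence that encoded it with 405 counts. They are shown because they differ at 1 base, given as a capital.
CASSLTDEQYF, mice 3 and 20: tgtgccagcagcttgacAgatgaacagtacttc
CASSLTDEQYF, mouse 20 only: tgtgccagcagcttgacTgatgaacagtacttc

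A 15-residue clonotype of TRBV4 with TRBJ2-1 was found in 5 mice, each time with another nucleotide sequence. They were the 3 given 0.5 mg/kg and the untreated mice 4 and 17. It took 0.142% and 1.46% of the tumors of mouse 4, 0.358% and 1.99% of those of mouse 20, 0.754% of tumor 2 of mouse 11, 0.0395% of tumor 2 of mouse 3, and 2 counts of tumor 2 of mouse 17. The sequences are shown because all 5 encode the same residues. Capitals mark the 6 of 45 bases at which any of them differed.
Mouse 4: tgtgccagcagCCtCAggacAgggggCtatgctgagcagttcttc
Mouse 20: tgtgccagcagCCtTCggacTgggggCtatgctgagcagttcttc
Mouse 11: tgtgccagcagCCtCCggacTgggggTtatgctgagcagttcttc
Mouse 3: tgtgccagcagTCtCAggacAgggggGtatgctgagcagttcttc
Mouse 17: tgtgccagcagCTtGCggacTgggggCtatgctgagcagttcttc
The large TRBV4 clone of mouse 10 described above, at 9.56% and 9.31%, was 1 residue away: from the clone of mouse 10 to this clonotype the change is L7T, counted from the first residue of the CDR3. Its main nucleotide sequence differed at 8 bases from that of mouse 4. The main sequence of the mouse 10 clone had 68397 counts there and 2 counts, the fewest kept, in mouse 20. Another nucleotide sequence encoded it in mouse 17 with 10 counts, with the 3 bases that differ in capitals.
Mouse 10: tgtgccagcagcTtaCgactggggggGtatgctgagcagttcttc
Mouse 17: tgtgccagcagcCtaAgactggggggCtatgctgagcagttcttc

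The 14-residue clonotype at 9.18% in mouse 19 was also found at 0.202% (0.188–0.216) in tumor 2 of mouse 10, with 1 other base, shown as a capital. It had 2 to 8 counts in mice 7, 11, 12 and 16 with the same bases as in mouse 19. That sequence had 19112 counts in mouse 19, and 2 is the lowest count kept. A clonotype with the same V and J segments that differs from it by A5S took 0.127% and 2.15% of the tumors of mouse 7 and was found in no other mouse.
TRBV4 and TRBJ1-1, mouse 19: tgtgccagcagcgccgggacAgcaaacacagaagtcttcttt
TRBV4 and TRBJ1-1, mouse 10: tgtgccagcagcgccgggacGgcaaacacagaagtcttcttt
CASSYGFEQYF, at 7.10% in tumor 1 of mouse 4, took 0.0559% and 0.173% of the tumors of the time-matched mouse 6 with another sequence. The sequence of mouse 6 was also found in mouse 14. That of mouse 4, with 16350 counts there, was found in mice 17, 11 and 10 at 54 counts or fewer.
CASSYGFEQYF, mouse 4: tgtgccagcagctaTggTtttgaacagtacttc
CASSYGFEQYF, mouse 6: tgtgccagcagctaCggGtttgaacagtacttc
Over all clonotypes of a segment found in more than 1 mouse, a nucleotide sequence was itself found in more than 1 mouse for 68 of 135 with TRBV4, 50 of 132 with TRBV5, 10 of 32 with TRBV2 and 8 of 24 with TRBV3. In 4 of those with TRBV4, 2 with TRBV3 and 1 with TRBV5, the counts of that sequence in the mice were 1000 times apart or more.

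The CDR3 loops of TRBV2, TRBV3 and TRBV5 were longer than those of other segments, and no difference was found for TRBV4. The mean length over clonotypes was 14.5 ± 0.33 residues for TRBV5 against 13.7 ± 0.29 for the other segments, longer in 12 of 12 mice (adjusted p = 0.00391, exact sign-flip test). It was 14.3 ± 0.47 for TRBV2 and 14.2 ± 0.47 for TRBV3, each longer in 10 of 12 mice (exact adjusted p = 0.0156 and 0.0398), and 13.7 ± 0.43 for TRBV4, longer in 6 of 12 (exact adjusted p = 0.986). Of 16 segments, 11 were called (68.8%), 7 of them longer. With TRBV17, whose loops averaged 12.6 ± 1.15 residues, left out, TRBV5 stayed called (0.63 residues, exact adjusted p = 0.00366). The differences of TRBV2 (0.45, exact adjusted p = 0.0675) and TRBV3 (0.28, exact adjusted p = 0.223) did not. Both were also lost with single-count sequences kept (exact adjusted p = 0.0541 and 0.0873), and that of TRBV3 without mouse 4, 6, 7, 10, 11, 16, 17 or 20 (0.36 to 0.48 residues, exact adjusted p = 0.0526 to 0.0781). The most frequent length was 15 residues in TRBV2 (37.1 ± 13.0% of clonotypes), TRBV3 (32.4 ± 25.0%) and TRBV5 (30.1 ± 8.31%), and 14 in TRBV4 (32.6 ± 16.9%). Loops of 11 residues made up 11.1 ± 13.3% of TRBV4 clonotypes 3.02 to 3.96% of those of TRBV2, TRBV3 and TRBV5, and 13.7 ± 5.62% of those of all other segments.

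**Figure D4:**
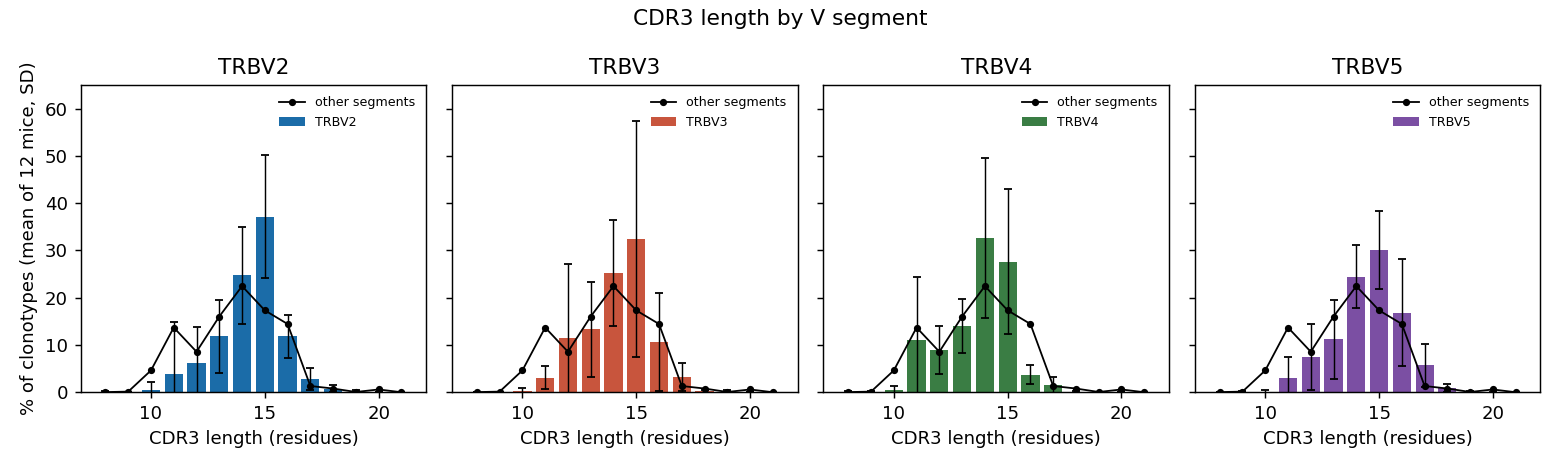
Share of clonotypes (y axis, percent, mean of 12 mice with SD) by CDR3 length in residues (x axis) for each of the 4 segments as bars, and for all other segments as a black line. The bars peak at 15 residues for TRBV2, TRBV3 and TRBV5 and at 14 for TRBV4, and TRBV4 alone among them has a second peak at 11.

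The loops of TRBV2 and TRBV5 opened mostly alike. They began with CASS and glutamine in 69.2 ± 9.39% of TRBV2 and 62.1 ± 6.45% of TRBV5 clonotypes, and with CASS and leucine in 54.2 ± 11.2% of TRBV3 clonotypes (SD, n = 12 mice). In TRBV4 no residue after CASS dominated, with leucine at 14.3 ± 10.8%, serine at 10.2 ± 6.67% and tyrosine at 8.57 ± 4.57%. In TRBV5 proline came second at 12.9 ± 4.11%. The D segment was called as TRBD1 in 45.2 to 47.1% of clonotypes of each of the 4 segments (SD 6.18 to 19.9), beside 40.6 ± 5.40% in the other segments. No D segment was called in 13.1 ± 9.27% of TRBV4, 18.1 ± 6.23% of TRBV5, 19.8 ± 6.88% of TRBV2 and 24.4 ± 16.2% of TRBV3 clonotypes, and in 24.2 ± 4.51% of those of other segments.

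The J segments joined most often were those of the TRBJ2 cluster. TRBJ2-7 was the first partner of TRBV2 (16.7 ± 7.89% of clonotypes), TRBV4 (24.3 ± 12.4%) and TRBV5 (16.9 ± 6.41%), and TRBJ2-5 that of TRBV3 (24.6 ± 20.4%). The next partners were TRBJ2-1 (13.1%) and TRBJ2-5 (11.1%) for TRBV2, TRBJ2-7 (18.8%) and TRBJ2-1 (15.9%) for TRBV3, TRBJ2-1 (22.8%) and TRBJ1-1 (10.5%) for TRBV4, and TRBJ2-5 (13.6%) and TRBJ2-1 (13.0%) for TRBV5. In the other segments TRBJ2-7 was also first (20.3 ± 4.76%), followed by TRBJ2-1 (15.2%) and TRBJ2-5 (13.0%). The whole TRBJ2 cluster took 63.1 ± 10.8% of TRBV2 and 65.4 ± 10.1% of TRBV5 clonotypes, against 72.5% in the respective other segments, and each was lower in 9 of 12 mice. Neither difference passed the exact sign-flip test after adjustment (-9.33 points, adjusted p = 0.159, and -7.13 points, adjusted p = 0.165). TRBV3 (75.4 ± 19.7%) and TRBV4 (73.2 ± 13.5%) differed from their other segments by 3.12 and 1.09 points (exact adjusted p = 0.687 and 0.944). The TRBV3 value was 6.80 without close sequences, 0.973 by nucleotide clonotypes and 1.25 with single-count sequences kept, 6.34 or 6.09 without mouse 12 or 4, and 1.26 or 1.28 without mouse 7 or 17. The TRBV4 value was -1.65, -0.733 and 4.21 without mouse 10, 4 or 19. None of the 16 segments was called (0%), with 4 at an unadjusted p under 0.05.

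**Figure D5:**
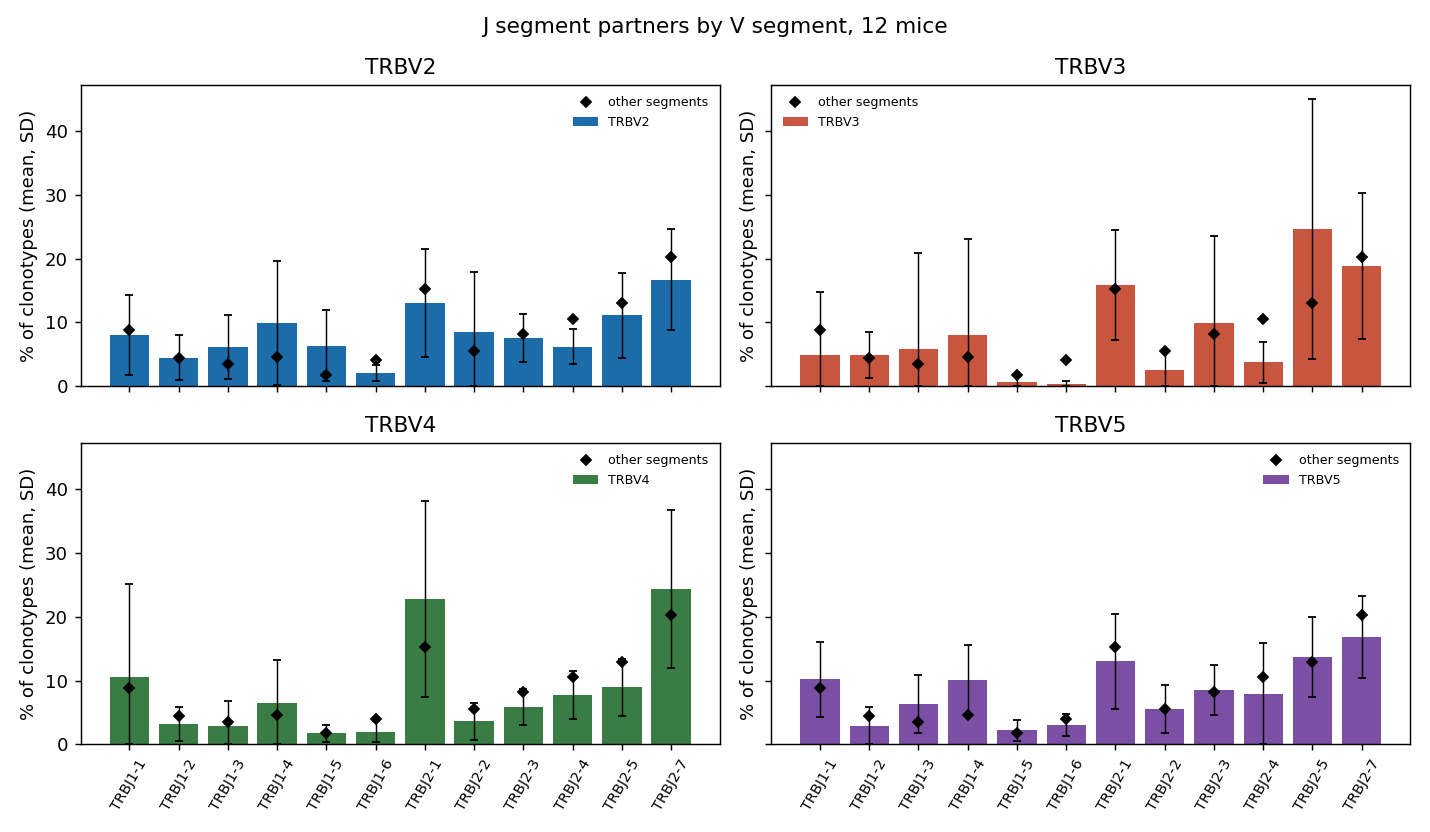
Share of each segment's clonotypes (y axis, percent, mean of 12 mice with SD) joined to each of 12 J segments (x axis), with the mean of all other segments as black diamonds. TRBJ2-7, TRBJ2-5 and TRBJ2-1 are the highest bars of TRBV2, TRBV3 and TRBV5, and the SD of TRBV3 with TRBJ2-5 is nearly as large as its mean.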

How the data were processed

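Total RNA of whole tumors was made into T cell receptor libraries with a kit that carries molecular identifiers, and the authors called clonotypes with the Cogent NGS Immune Profiler 2.0. The deposited read counts per receptor sequence were used as given by the authors, and those of the α chain were searched for these segments alone. The methods state that an analysis based on the identifiers was run but call the values reads, so whether reads of 1 identifier had been merged in these counts is not settled, and the genome build is not given in the sources used here. The deposited CDR3 length columns (other values) were not used; lengths were taken from the sequences.

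Nonproductive sequences (6.78 to 9.65% of counts per library) and single-count sequences (1.39 to 9.71%) were left out. A clonotype was a CDR3 amino acid sequence with its V and J segments. Shares were taken of all retained counts or clonotypes of a tumor and averaged over the 2 tumors of a mouse. Counts summed per mouse were tested with edgeR 4.0.16 (quasi-likelihood, library totals as sizes, segments with at least 10 in at least 3 mice), with DESeq2 1.42.0 as an alternative. Each segment was set against the other segments of the same tumor with exact sign-flip tests over 12 mice, for segments with at least 10 clonotypes in every mouse, and the 2 tumors of a mouse were set against each other with 1 count added. All p-values were adjusted by Benjamini-Hochberg over all segments tested. The edgeR test was checked on simulated clonotype numbers, a check that does not extend to the fits of counts. Other settings were thinned libraries (63291 counts each), single-count sequences kept, trimmed-mean scaling, nucleotide clonotypes, at least 30 clonotypes per segment, no filter on low segments, exact permutation tests of shares, 10 counts added in the pair ratios, untreated time-separated mice alone in the pair test, at least 10 counts in the other mouse for recurrence, leaving out close sequences or TRBV17, and leaving out each mouse.

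The segments, lists and named clonotypes were chosen with earlier results of these data known. Named were the largest clonotype of each segment and group by mean share over the tumors of a mouse, the clonotype of each segment found in most mice, its 3 most frequent J partners and the 2 segments with the most similar clonotype shares. The clonotypes of 1% or more that recur were named after their values were seen. A share of 0 was limited at 3 counts of the library. Single-clonotype intervals are exact Clopper-Pearson intervals at 95%. The old segment names come from RefSeq's gene table (GRCm38.p6), used for names only. Tumors of 1 mouse were 1 replicate. Software was R 4.3.3, Python with SciPy and Matplotlib.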

Additional observations from a re-analysis of the deposited data

Results flagged for a closer look

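With 32 groups of 6 tumors looked at, chance alone sets a tumor apart in about 1 group in 20, and 4 were set apart by Dixon's gap. That rate holds for independent values, and the 6 tumors of a group come from 3 mice. TRBV2 took 0.476% of clonotypes in tumor 2 of mouse 19 (untreated, time-separated), where the nearest tumor of the group held 2.92%. TRBV3 took 4.03% of counts in tumor 2 of mouse 16 (2 mg/kg), with 0.995% as the next value, and 4.81% of clonotypes, with 2.06% as the next. TRBV4 took 11.4% of counts in tumor 2 of mouse 20 (0.5 mg/kg), with 4.92% as the next.

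The α chain tables, outside the comparisons, held a few sequences assigned to these β chain segments. In all there were 32 sequences with 35 of 5736866 α counts, in 17 tables. The limit that a count of 0 allows was passed in 2 of them, with 7 counts in tumor 1 of mouse 10 and 5 counts in tumor 1 of mouse 6.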

How the results depend on the processing

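For the 4 segments, 205 of 244 values under other settings (exact tests of 3 against 3 mice and the 30-clonotype minimum not counted) and 351 of 384 with 1 mouse left out kept their direction and their side of the threshold. In counts, time separation gave for TRBV2, TRBV3, TRBV4 and TRBV5 log2 differences of -1.11, -1.31, -0.11 and -0.69 with trimmed-mean scaling and -0.86, -0.78, -0.11 and -0.44 with DESeq2, against values above 0 as reported. At 2 mg/kg they were 0.31, 0.22, 0.097 and 0.17 with trimmed-mean scaling and 0.32, 0.10, 0.31 and 0.15 with DESeq2, against values below 0. In clonotypes, time separation gave -0.063 for TRBV3 and -0.0060 for TRBV5 with trimmed-mean scaling, and -0.11, -0.28 and -0.11 for TRBV2, TRBV3 and TRBV5 with DESeq2. With time separation, TRBV3 was at -0.085 in thinned libraries and -0.32 without close sequences. At 2 mg/kg TRBV2 and TRBV5 were at 0.014 and 0.023 with trimmed-mean scaling and 0.058 and 0.031 with DESeq2. The CDR3 length difference of TRBV4 was 0.075 residues by nucleotide clonotypes and 0.065 without close sequences.

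Leaving out 1 mouse moved the counts difference of TRBV3 with time separation between -0.073 and 3.55, of TRBV2 at 0.5 mg/kg between -0.0028 and 0.58, and of TRBV4 at 2 mg/kg between -2.38 and 0.18. It moved the clonotype difference of TRBV3 with time separation between -0.25 and 0.80, of TRBV2 at 0.5 mg/kg between -0.13 and 0.26, and of TRBV4 and TRBV5 at 2 mg/kg between -1.02 and 0.091 and between -0.41 and 0.087. The TRBV4 length difference moved between -0.076 and 0.094 residues and its TRBJ2 difference between -1.65 and 4.21 points. Over all segments, 1 segment was called in counts with time separation in thinned libraries, and 1 in TRBJ2 share with TRBV17 left out, against 0 as reported. Leaving out 1 mouse gave 0 to 1 calls for counts with time separation (1 without mouse 19), for clonotypes with time separation (1 without mouse 6 or 12) and for TRBJ2 share (1 without mouse 14). The recurrence of TRBV5 was also lost where the other mouse had to hold at least 10 counts (-0.86 points, exact adjusted p = 0.0836), and that of TRBV4 was called with TRBV17 left out. The cause was not tested. Leaving out close sequences, leaving out TRBV17 and asking for 10 counts were chosen after seeing the data. No paired analysis was possible because the groups share no mouse, and the 2 tumors of a mouse were joined. With 3 mice a group, an exact test of 1 segment between groups cannot go below p = 0.10. Libraries with few counts limit what is found of small clonotypes.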
